A study of Mus musculus with 12 samples.

Results

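The genes described are 10 receptor chains through which interferons and the interleukins 10, 4, 21 and 6 act on cells: Ifnar1, Ifnar2, Ifngr1, Ifngr2, Il10ra, Il10rb, Il4ra, Il21r, Il6ra and Il6st. They were taken by symbol from a table of raw counts, where all 10 were found among 28188 symbols, and all 10 passed the filter on low counts in every comparison. RNA was sequenced from splenic B cells and splenic dendritic cells isolated from mice of 12 weeks. The control strain was NOD, an inbred line prone to spontaneous autoimmune diabetes, and it was set against NOD.Idd2, the same background with the Idd2 susceptibility locus of B10 origin. Each cell type was sequenced from each strain in 3 libraries, which makes 4 groups, and no treatment is named for any of them. The sources used here do not give the markers used for isolation, the ends of the B10 segment or any pooling of animals. Nor do they say that libraries of a group come from separate animals, and p-values then reflect only the spread among libraries, which may be technical.

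These receptors belong to the class I and class II cytokine receptor families. They have no kinase of their own: a ligand brings a pair of chains together, the JAK family kinases bound to their tails phosphorylate them, and STAT proteins then carry the signal to the nucleus. In each receptor 1 chain gives most of the specificity for the ligand and a partner completes the signal, and some partners are shared, as IL10RB is between interleukin 10, interleukin 22 and interferon lambda, and gp130, the product of Il6st, among the interleukin 6 family. In the spleen, interleukin 4 and interleukin 21 from T cells act on B cell activation and class switching. Interferons, interleukin 10 and interleukin 6 act on the maturation of dendritic cells. These are examples of their actions and do not divide the ligands between the cell types.

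On the GRCm38 build, with the GENCODE M21 annotation, 4 of the genes lie in a row on the plus strand of chromosome 16. Ifnar2 (91372783 to 91405589) ends 574 bases before Il10rb (91406164 to 91425834), Ifnar1 (91485238 to 91507441) begins 59.4 kb after it, and Ifngr2 (91547072 to 91565623) begins 39.6 kb further on. Il4ra (125552120 to 125579474) and Il21r (125603429 to 125633570) are neighbours on the plus strand of chromosome 7, 24.0 kb apart with 0 annotated genes between them. Il10ra (45253837 to 45269149, minus strand) is on chromosome 9, which carries the Idd2 locus. Ifngr1 is on chromosome 10 (19591949 to 19610229), Il6ra on chromosome 3 (89864059 to 89913196, minus strand) and Il6st on chromosome 13 (112464070 to 112510086). The annotation also holds Gm21970, a readthrough transcript on the same strand that shares 315 exon bases with Ifnar2 and 569 with Il10rb. The table has no symbol for it, so reads from it could have been counted for either receptor.

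The promoters of 4 genes are shown because Il6ra differed most between the cell types, because Il4ra differed more than Il21r, the other gene lower in dendritic cells, and because Ifnar1 and Ifnar2 encode the chains of 1 receptor and differed unequally. They are RefSeq sequences of 300 bases around the annotated start on GRCm38.p6, 5′ to 3′ on the strand of the gene, at chr3:89913147-89913446 (minus strand) for Il6ra, chr7:125552021-125552320 for Il4ra, chr16:91484965-91485264 for Ifnar1 and chr16:91372533-91372832 for Ifnar2. Capitals mark matches to any of 3 motifs.
Il6ra: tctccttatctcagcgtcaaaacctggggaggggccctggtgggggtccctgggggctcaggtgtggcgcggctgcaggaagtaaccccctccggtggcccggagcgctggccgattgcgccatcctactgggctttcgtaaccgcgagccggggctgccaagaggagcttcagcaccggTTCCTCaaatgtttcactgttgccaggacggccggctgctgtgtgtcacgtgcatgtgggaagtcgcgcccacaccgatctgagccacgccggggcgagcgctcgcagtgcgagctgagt
Il4ra: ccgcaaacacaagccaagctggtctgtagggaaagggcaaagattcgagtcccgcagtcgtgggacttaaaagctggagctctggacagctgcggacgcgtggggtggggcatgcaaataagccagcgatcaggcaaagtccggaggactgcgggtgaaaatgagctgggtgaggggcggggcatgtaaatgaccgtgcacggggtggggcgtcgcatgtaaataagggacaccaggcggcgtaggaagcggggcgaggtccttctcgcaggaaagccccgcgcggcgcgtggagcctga
Ifnar1: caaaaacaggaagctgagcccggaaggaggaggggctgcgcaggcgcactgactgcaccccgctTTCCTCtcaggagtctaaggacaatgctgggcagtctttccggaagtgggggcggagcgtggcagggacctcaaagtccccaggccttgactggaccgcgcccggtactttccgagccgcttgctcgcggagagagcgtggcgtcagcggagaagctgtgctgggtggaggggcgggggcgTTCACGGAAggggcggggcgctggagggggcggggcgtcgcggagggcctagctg
Ifnar2: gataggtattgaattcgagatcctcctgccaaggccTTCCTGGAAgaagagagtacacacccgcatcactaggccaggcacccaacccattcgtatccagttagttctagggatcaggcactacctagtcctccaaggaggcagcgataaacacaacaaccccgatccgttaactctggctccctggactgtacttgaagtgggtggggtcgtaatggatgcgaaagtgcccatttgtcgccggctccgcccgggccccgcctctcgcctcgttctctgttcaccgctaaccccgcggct

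The motifs were searched on both strands: TTCNNNGAA, the gamma-activated site bound by STAT dimers, a core of the interferon-stimulated response element, with the letters GAAA at either end of 2 free bases, and GAGGAA, a core bound by the myeloid and B cell factor PU.1. Of 32851 RefSeq promoters of this length, 8.30% held the first, 3.44% the second and 28.3% the third. Of the 8 receptor genes with a promoter in the table, the first motif was in Ifnar1 and Ifnar2, the third was in Ifnar1 and Il6ra, and the second was in none. Il4ra held none of the 3 strings. A match is a match of letters and was not tested as a binding site.

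Depth was 40344883 to 44632276 counts in B cells and 8663421 to 30337812 in dendritic cells, the shallowest library being NOD.Idd2 replicate 3, in which the receptor counts ran from 606 to 6010. Levels are given as CPM, counts scaled by library size with TMM factors, as mean ± SD with n = 3 libraries a group. Each isolated population carried its own markers: the summed level of 6 B cell markers was 9565 to 9926 CPM in B cells and 33.0 to 74.3 in dendritic cells, and that of 7 conventional dendritic cell markers was 9.27 to 11.2 and 3751 to 4119. The dendritic cell libraries also held more of 6 macrophage markers (563 to 677 CPM, against 41.2 to 54.5), of 5 monocyte markers (483 to 738, against 7.73 to 16.8), and of 6 T cell markers (449 to 524, against 78.2 to 121). Of the monocyte markers, Ccr2 (191 to 376 CPM) and Csf1r (275 to 362) made up most of the sum in dendritic cells. Chil3 went the other way in NOD, at 1.24 to 3.71 CPM in B cells and 0.270 to 0.891 in dendritic cells. Of the T cell markers, Cd4 (334 to 428 CPM) and Cd8a (77.4 to 91.4), which dendritic cells of the spleen also express, made up most of the sum in dendritic cells, and Lck (61.9 to 75.3) in B cells. Cd3e, a T cell receptor subunit, was at 2.95 to 9.47 CPM in B cells and 3.20 to 6.20 in dendritic cells. The cell types differed in sex too, with Xist at 1560 to 2103 CPM in B cells and at most 0.154 CPM elsewhere, and Ddx3y at 0 in B cells and 234.9 to 305.7 in dendritic cells. Sex and cell type therefore cannot be told apart in any comparison between cell types. The part of macrophages, monocytes and T cells in the receptor levels of dendritic cells was not tested, and in such bulk samples fewer cells of a type and less RNA per cell cannot be told apart. Replicate 3 of both B cell groups stood apart from replicates 1 and 2, with a chi-square per gene of 41.2 to 47.1 between them against 7.93 and 8.48 between replicates 1 and 2. In no group were replicates within sampling noise of each other, the lowest chi-square per gene being 3.28.

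**Figure D1:**
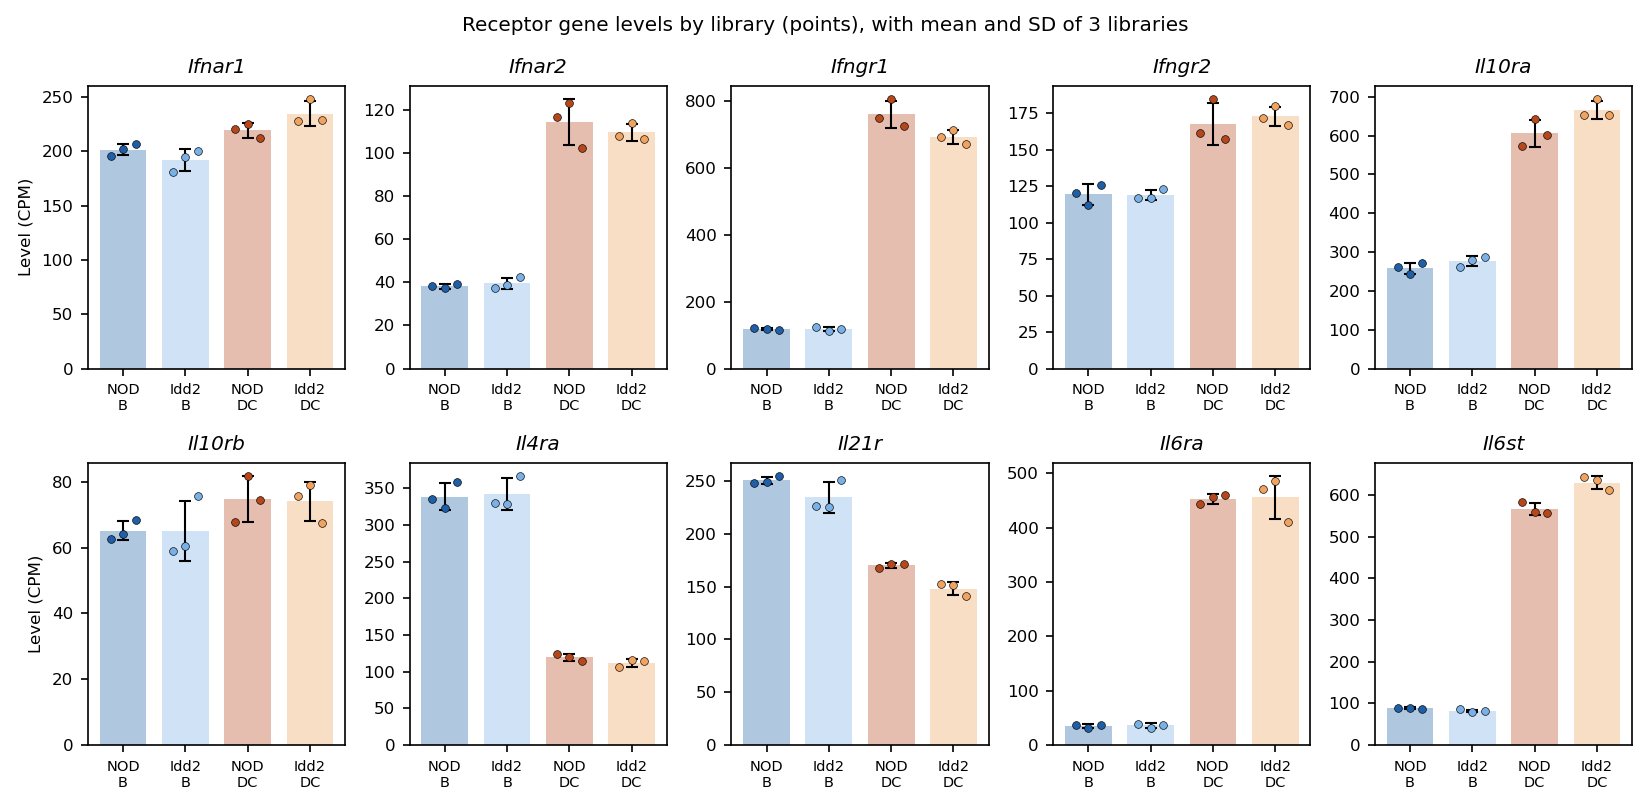
Level of each receptor gene (CPM, vertical axes from 0 and different in each panel) in the 12 libraries, as points, with the mean (bar) and SD (whisker) of the 3 libraries of a group; B is B cells, DC dendritic cells and Idd2 the NOD.Idd2 strain. Il6ra, Il6st and Ifngr1 stand several-fold higher in dendritic cells, Il4ra and Il21r are lower there, and Ifnar1 and Il10rb sit at similar heights in the 4 groups.

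All 10 receptor genes were expressed in both cell types, at levels that differed, and the same 9 of 10 passed the test between them in either strain. Both chains for interferon gamma and for interleukin 6, the interleukin 10 chain Il10ra and the type I interferon chain Ifnar2 were higher in dendritic cells, Ifnar1 was slightly higher there, Il4ra and Il21r were higher in B cells, and Il10rb did not pass. In edgeR's quasi-likelihood fit, with p-values adjusted by the Benjamini-Hochberg method and a threshold of 0.05, 7 genes were higher and 2 lower in dendritic cells in NOD, where 76.4% of all 16588 genes tested passed (37.7% higher and 38.7% lower). The counts were 7 and 2 again in NOD.Idd2, where 75.7% passed (36.7% higher and 38.9% lower). The groups of these 9 genes did not overlap in either strain, as for 77.6% of all genes in NOD and 77.3% in NOD.Idd2. A pass is thus common among all genes, and the count of members is near that background. The median size of the log2 difference, regardless of sign, was 1.37 in NOD and 1.36 in NOD.Idd2 over the 10 genes, against 0.77 in both over all genes tested. The values below are for the strains separately, since the strains use different libraries.

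Of the type I interferon receptor, Ifnar2, the chain with the higher affinity for the ligand, differed between the cell types more than its partner Ifnar1. Ifnar2 was at 38.1, 37.2 and 39.4 CPM in the NOD B cell libraries, 37.1, 38.9 and 42.4 in NOD.Idd2 B cells, 117, 123 and 103 in NOD dendritic cells and 108, 114 and 107 in NOD.Idd2 dendritic cells. All 6 dendritic cell libraries lay above all 6 B cell libraries. The difference was 3.01-fold in NOD (log2 1.59, SE 0.07, adjusted p = 2.36e-10 by edgeR) and 2.75-fold in NOD.Idd2 (log2 1.46, SE 0.07, adjusted p = 5.99e-10). Ifnar1 was at 196, 202 and 206 CPM in NOD B cells, 181, 194 and 201 in NOD.Idd2 B cells, 220.2, 225 and 212 in NOD dendritic cells and 228, 248 and 228 in NOD.Idd2 dendritic cells. The groups did not overlap here either, but the gap was narrow: 1.10-fold in NOD (log2 0.13, SE 0.05, adjusted p = 0.0202 by edgeR) and 1.21-fold in NOD.Idd2 (log2 0.28, SE 0.05, adjusted p = 0.000148). In NOD the Ifnar1 call was lost under 5 of 19 alternatives, with adjusted p from 0.00605 to 0.177 and log2 differences from 0.09 to 0.20. They were scaling by library totals (0.105), no filter on low counts (0.101), and leaving out NOD B cell replicate 1 (0.0830), NOD dendritic cell replicate 2 (0.177) or NOD.Idd2 dendritic cell replicate 2 (0.0902).

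The interferon gamma receptor showed the same inequality between its chains. Ifngr1, the chain that binds the ligand, was at 122, 118 and 114 CPM in NOD B cells and 123, 113 and 118 in NOD.Idd2 B cells. In NOD dendritic cells it was at 749.8, 805 and 726 CPM, and in NOD.Idd2 dendritic cells at 692, 712 and 671. It was 6.51-fold higher in dendritic cells in NOD (log2 2.70, SE 0.05, adjusted p = 9.69e-14 by edgeR) and 5.81-fold higher in NOD.Idd2 (log2 2.54, SE 0.05, adjusted p = 1.69e-13). Ifngr2, the partner that brings JAK2 into the receptor, was at 121, 112 and 126 CPM in NOD B cells and 117, 117 and 123 in NOD.Idd2 B cells. It reached 161, 184 and 157 CPM in NOD and 172, 179.7 and 167 in NOD.Idd2 dendritic cells, again with no overlap, a difference of 1.42-fold in NOD (log2 0.50, SE 0.06, adjusted p = 8.70e-06 by edgeR) and 1.44-fold in NOD.Idd2 (log2 0.53, SE 0.06, adjusted p = 5.63e-06).

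Of the interleukin 10 receptor, Il10ra, which binds the cytokine and carries the sites for STAT3, was at 261, 244 and 271 CPM in NOD B cells, 262, 279 and 288 in NOD.Idd2 B cells, 574, 642 and 603 in NOD dendritic cells and 653, 693 and 653 in NOD.Idd2 dendritic cells. Every dendritic cell library was above every B cell library. The difference was 2.36-fold in NOD (log2 1.24, SE 0.05, adjusted p = 2.83e-10 by edgeR) and 2.39-fold in NOD.Idd2 (log2 1.26, SE 0.05, adjusted p = 2.56e-10). Il10rb, the shared second chain, was at 62.8, 64.3 and 68.5 CPM in NOD B cells, 58.8, 60.6 and 75.6 in NOD.Idd2 B cells, 67.8, 81.8 and 74.4 in NOD dendritic cells and 75.7, 79.1 and 67.6 in NOD.Idd2 dendritic cells. The cell types overlapped, the B cell replicate 3 libraries being the highest of their groups. Il10rb did not pass in NOD (log2 0.21, SE 0.09, 95% interval 0.01 to 0.41, adjusted p = 0.0565 by edgeR) or in NOD.Idd2 (log2 0.18, SE 0.09, 95% interval -0.02 to 0.39, adjusted p = 0.0934). The call turned with the processing: Il10rb passed under 9 of 19 alternatives in NOD, with adjusted p from 0.00841 to 0.326, the replicate block among them (0.0482), and under 3 of 19 in NOD.Idd2, with adjusted p from 0.00185 to 0.318. That block ties B cell to dendritic cell libraries by number, which the labels do not state, and the cell types differed in sex. Deviations from the group mean correlated between same numbers at only -0.0386, 0.0410 and 0.0496 in NOD. With all libraries kept, Il10rb also passed under DESeq2, in NOD (adjusted p = 0.0340) and in NOD.Idd2 (0.0444). By edgeR it passed in NOD with RLE size factors (0.0468) and with the filter at 1 CPM (0.0390). The lowest p-values came without NOD.Idd2 B cell replicate 3, where the log2 difference in NOD.Idd2 was 0.33. In NOD it also passed without NOD B cell replicate 3 (0.0474), NOD dendritic cell replicate 1 (0.0210) or NOD.Idd2 dendritic cell replicate 1 or 3 (0.0457 and 0.0387), and in NOD.Idd2 without NOD.Idd2 dendritic cell replicate 3 (0.0437).

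The neighbours Il4ra and Il21r were the members with higher levels in B cells. Il4ra, which binds interleukin 4 and is shared with the interleukin 13 receptor, was at 335, 323 and 359 CPM in NOD B cells and 329.9, 329 and 367 in NOD.Idd2 B cells, against 124, 120.4 and 114 in NOD dendritic cells and 106, 116 and 114 in NOD.Idd2 dendritic cells. The lowest B cell library was far above the highest dendritic cell library, and the difference was 2.81-fold in NOD (log2 -1.49, SE 0.06, adjusted p = 1.34e-10 by edgeR) and 3.08-fold in NOD.Idd2 (log2 -1.62, SE 0.06, adjusted p = 6.56e-11). Il21r, the specific chain for interleukin 21, was at 249, 249 and 255 CPM in NOD B cells, 227, 226 and 251 in NOD.Idd2 B cells, 167, 172 and 172 in NOD dendritic cells and 152, 151 and 141 in NOD.Idd2 dendritic cells. B cells were higher without overlap, by 1.46-fold in NOD (log2 -0.55, SE 0.05, adjusted p = 2.73e-07 by edgeR) and 1.59-fold in NOD.Idd2 (log2 -0.67, SE 0.05, adjusted p = 3.85e-08). Il2rg, the common gamma chain that both receptors use as a partner, was at 163 ± 32.4 CPM in NOD B cells and 179 ± 6.10 in NOD dendritic cells (log2 0.15, SE 0.14, adjusted p = 0.355 by edgeR), its B cell replicate 3 libraries standing at 200.1 and 201 CPM and the other B cell libraries between 142 and 145.

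Of all 10 genes Il6ra had the largest difference. This chain, which binds interleukin 6 but does not itself signal, was at 37.4, 31.3 and 37.2 CPM in NOD B cells and 39.0, 31.7 and 37.5 in NOD.Idd2 B cells. In dendritic cells it was at 443, 457 and 461 CPM in NOD and at 471, 486 and 411 in NOD.Idd2. These values lay an order of magnitude apart, 12.9-fold in NOD (log2 3.69, SE 0.09, adjusted p = 1.26e-12 by edgeR) and 12.5-fold in NOD.Idd2 (log2 3.65, SE 0.09, adjusted p = 1.47e-12). Il6st, whose product gp130 transmits the signal of the whole interleukin 6 family, was at 89.9, 88.9 and 87.3 CPM in NOD B cells and 85.3, 79.2 and 81.9 in NOD.Idd2 B cells, against 582, 558 and 557 in NOD dendritic cells and 642, 635 and 611 in NOD.Idd2 dendritic cells. All dendritic cell libraries were far above all B cell libraries, by 6.43-fold in NOD (log2 2.69, SE 0.05, adjusted p = 4.11e-14 by edgeR) and 7.61-fold in NOD.Idd2 (log2 2.93, SE 0.05, adjusted p = 2.36e-14). Apart from Ifnar1 in NOD and Il10rb, the 8 other receptor genes passed in both strains, and Ifnar1 in NOD.Idd2, under all 19 alternatives run.

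**Figure D2:**
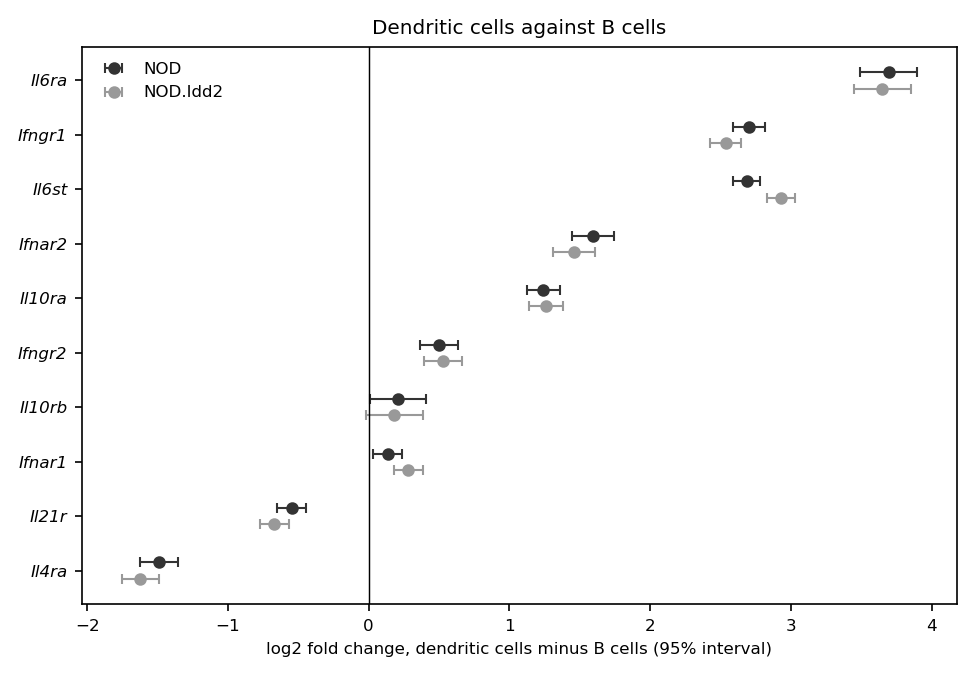
Difference of each receptor gene between dendritic cells and B cells, as log2 fold change with its 95% interval (horizontal axis, dendritic cells minus B cells), in NOD (black) and NOD.Idd2 (grey). The genes run from Il6ra at 3.69 in NOD to Il4ra at -1.49, and Il10rb lies at 0.21 and 0.18.

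Divided by exon length, so that genes can be set against each other, the order of levels differed between the cell types. In NOD B cells Il21r (75.4 ± 1.09 CPM per kilobase) and Il10ra (73.9 ± 3.95) were highest and overlapped, followed by Il4ra (56.5 ± 3.02) and Ifngr1 (41.4 ± 1.45). Ifnar1 (33.9 ± 0.889) and Ifngr2 (31.7 ± 1.89) overlapped next, and Il10rb (17.1 ± 0.783), Ifnar2 (11.5 ± 0.338), Il6st (7.99 ± 0.118) and Il6ra (4.09 ± 0.399) came last without overlap. NOD.Idd2 B cells had the same order except that Il10ra (79.1 ± 3.85) and Il21r (70.6 ± 4.31), which overlapped, changed places. In NOD dendritic cells Ifngr1 led by a wide margin at 267 ± 14.2 CPM per kilobase, Il10ra was next at 173 ± 9.77, and Il6ra (52.5 ± 1.08), Il21r (51.2 ± 0.749) and Il6st (51.0 ± 1.29) overlapped behind them. Ifngr2 (44.5 ± 3.89) followed, then Ifnar1 (36.9 ± 1.13) and Ifnar2 (34.3 ± 3.19), which overlapped, and the overlapping Il4ra (19.9 ± 0.804) and Il10rb (19.6 ± 1.84). In NOD.Idd2 dendritic cells Ifngr1 (243 ± 7.36) and Il10ra (191 ± 6.60) also led, and Il4ra (18.7 ± 0.830), overlapping with Il10rb (19.5 ± 1.55), was the lowest. These levels use the merged exons of all annotated transcripts, so a gene read mostly as a short transcript is understated.

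The balance between the 2 chains of 1 receptor differed between the cell types for all 4 receptors with both chains among the members. The ratio of Ifngr1 to Ifngr2 per kilobase of exon was 1.34, 1.39 and 1.20 in the NOD B cell libraries and 1.40, 1.28 and 1.27 in NOD.Idd2 B cells, against 6.15, 5.77 and 6.10 in NOD and 5.33, 5.25 and 5.31 in NOD.Idd2 dendritic cells. The B cell ratios stayed close to parity and the dendritic cell ratios were all above 5. For Ifnar2 to Ifnar1 the ratio was 0.347, 0.328 and 0.341 in NOD B cells and 0.367, 0.357 and 0.377 in NOD.Idd2 B cells, and 0.946, 0.976 and 0.863 in NOD and 0.846, 0.821 and 0.832 in NOD.Idd2 dendritic cells. By merged exon lengths of 3.33 kb for Ifnar2 and 5.94 kb for Ifnar1, Ifnar2 was the lesser chain in every library, clearly so in B cells. In dendritic cells the ratios were near parity. The transcripts in use, or reads of Gm21970, could change the order there, which was not tested. Il10ra to Il10rb stood at 4.32 ± 0.201 in NOD B cells, 4.67 ± 0.460 in NOD.Idd2 B cells, 8.86 ± 0.336 in NOD dendritic cells and 9.82 ± 0.610 in NOD.Idd2 dendritic cells. Il6ra to Il6st stood at 0.512 ± 0.0514, 0.563 ± 0.0426, 1.03 ± 0.0464 and 0.929 ± 0.0608 in the same order.

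Over 6 dendritic cell against 6 B cell libraries, strains together, the log2 ratio of counts was higher in dendritic cells by 2.11 for Ifngr1 to Ifngr2 (4.30-fold; SD 0.10 in dendritic cells and 0.09 in B cells), 1.32 for Ifnar2 to Ifnar1 (2.49-fold; SD 0.10 and 0.07), 1.06 for Il10ra to Il10rb (2.08-fold; SD 0.10 and 0.12) and 0.87 for Il6ra to Il6st (1.83-fold; SD 0.11 and 0.14). In each case the cell types did not overlap. Of single genes, 77.6% in NOD and 77.3% in NOD.Idd2 did not overlap between the cell types either. The share over all pairs of genes was not computed. The ratios restate the levels above and were chosen after those were seen, so they are given as a description with no test. In these 4 receptors the chain that binds the ligand with the higher affinity was the one relatively higher in dendritic cells. Il4ra and Il21r, which also bind ligands, were lower there, while their partner Il2rg did not pass in NOD. The order is thus not one of all the receptors described. Within dendritic cells the Ifngr1 to Ifngr2 and Ifnar2 to Ifnar1 ratios were lower in all 3 NOD.Idd2 than in all 3 NOD libraries, and the Il10ra to Il10rb ratio was higher, at 9.40, 9.54 and 10.52 against 9.21, 8.55 and 8.82. Within B cells the Ifnar2 to Ifnar1 ratio was higher in all 3 NOD.Idd2 libraries, opposite to its order in dendritic cells, and the other ratios overlapped between the strains. These strain differences were not tested, and their share over all pairs of genes was not computed. Of single genes, 14.5% in dendritic cells and 13.0% in B cells did not overlap between the strains. In dendritic cells Ifngr1, Ifnar1 and Il10ra did not overlap on their own, so these ratios in part restate those levels.

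**Figure D3:**
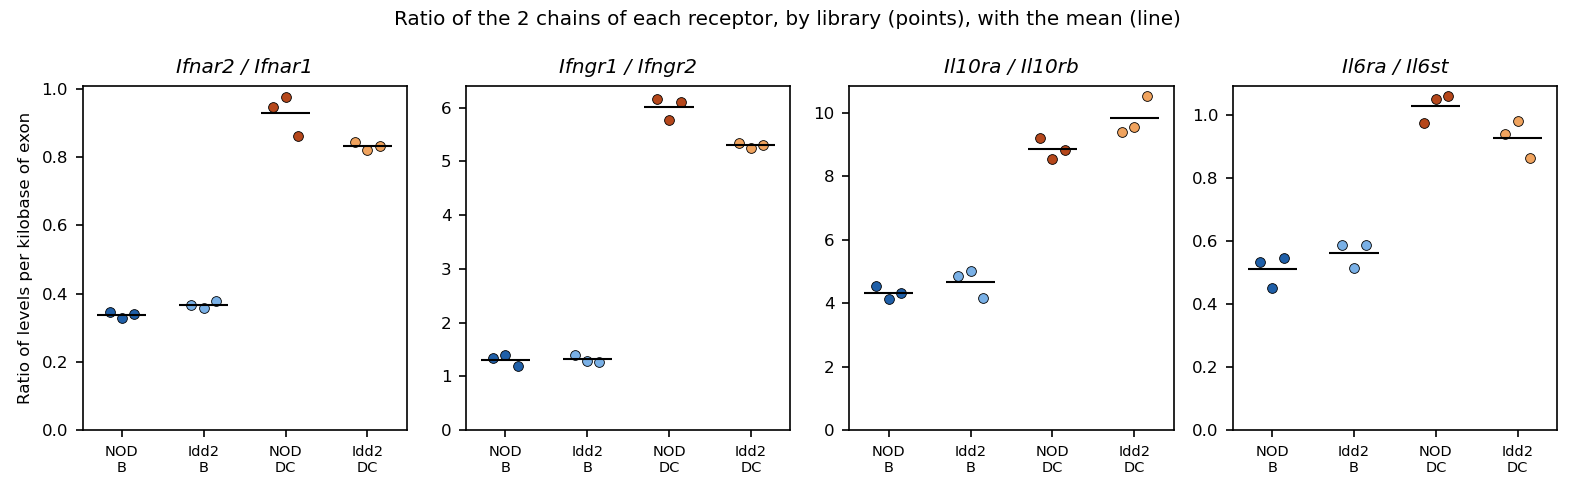
Ratio of the levels per kilobase of exon of the 2 chains of each receptor (vertical axes from 0 and different in each panel), for the 12 libraries (points) with the mean of each group (line); B is B cells, DC dendritic cells and Idd2 the NOD.Idd2 strain. In all 4 panels the dendritic cell libraries lie above the B cell libraries, most for Ifngr1 to Ifngr2, at 5.25 to 6.15 against 1.20 to 1.40.

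Between the strains, none of the receptor genes passed the test in B cells. With edgeR, 0 of 10 passed, where 24 of 15011 genes did (0.160%), and 1 of 10 had an unadjusted p under 0.05, against 6.40% of all genes. DESeq2 also called 0 of the 10. The log2 differences, NOD.Idd2 minus NOD, ran from -0.10 (Il6st) to 0.11 (Il10ra), with a median of 0.01 beside 0.01 over all genes tested, and the 95% intervals together reached from -0.23 to 0.28. Il6st was the 1 gene whose groups did not overlap, a pattern found in 13.0% of all genes (5.58% higher and 7.39% lower in NOD.Idd2): its 3 NOD.Idd2 libraries (85.3, 79.2 and 81.9 CPM) lay below its 3 NOD libraries (89.9, 88.9 and 87.3), with a log2 difference of -0.10 (SE 0.04, adjusted p = 0.771 by edgeR). The sum of the 6 macrophage markers also did not overlap in B cells, at 41.2 to 47.9 CPM in NOD and at 48.8 to 54.5 in NOD.Idd2, with 2 of 6 above 0, 4 below and 0 passing, and its part was not tested. Il10ra, the member on chromosome 9, was at 259 ± 13.8 CPM in NOD and at 277 ± 13.5 in NOD.Idd2 (log2 0.11, SE 0.06, 95% interval -0.03 to 0.25, adjusted p = 0.817 by edgeR). With the replicate number as a block, 156 genes passed in B cells (1.04%; 75 higher and 81 lower), and still 0 of the 10 receptors. Under that block 3 of 10, Il10ra, Il6st and Il21r, had an unadjusted p under 0.05, against 15.6% of all genes. Their adjusted p ran from 0.215 to 0.252 by edgeR.

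In dendritic cells 0 of 10 receptor genes passed, where 186 of 14441 genes did (1.29%), but 5 of 10 had an unadjusted p under 0.05, against 11.3% of all genes, and the groups of the same 5 did not overlap, against 14.5%. All differences were small. The log2 differences ran from -0.19 to 0.16, with a median of 0.01 beside 0.00 over all genes tested and a median size of 0.10 beside 0.09, and the 95% intervals together reached from -0.29 to 0.26. Il21r came nearest to the threshold, at 170.2 ± 2.49 CPM in NOD and at 148 ± 6.18 in NOD.Idd2. Its 3 NOD.Idd2 libraries, at 152, 151 and 141, lay below its 3 NOD libraries, at 167, 172 and 172 (log2 -0.19, SE 0.05, adjusted p = 0.0697 by edgeR). Il21r passed under DESeq2 (adjusted p = 0.0346) and with no filter on low counts (0.0483), and missed under the other 13 of 15 alternatives, with adjusted p up to 0.403.

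The other 4 of the 5 were divided in direction. Il6st was at 566 ± 14.3 CPM in NOD and at 629 ± 16.1 in NOD.Idd2 dendritic cells (log2 0.16, SE 0.05, adjusted p = 0.170 by edgeR). Il10ra was at 606 ± 34.2 and 667 ± 23.1 (log2 0.14, SE 0.05, 95% interval 0.03 to 0.25, adjusted p = 0.271). Ifnar1, at 219 ± 6.74 and 235 ± 11.3, had a log2 difference of 0.10 (adjusted p = 0.428). These 3 had all NOD.Idd2 libraries above all NOD libraries, a pattern found in 7.22% of all genes. Ifngr1, at 760.2 ± 40.5 and 692 ± 21.0, went the other way, with all NOD.Idd2 libraries lower, as in 7.25% of all genes (log2 -0.13, SE 0.05, adjusted p = 0.329 by edgeR). Il6st, Il10ra, Ifnar1 and Ifngr1 missed the threshold under all 15 alternatives, with adjusted p from 0.0662 upward, and Ifnar2, Ifngr2, Il10rb, Il4ra and Il6ra overlapped between the strains. The summed level of the 5 monocyte markers also differed without overlap in these libraries, at 483 to 669.6 CPM in NOD and at 699.8 to 738 in NOD.Idd2, with 0 of the 5 passing the test. Its members were divided: Ccr2 (245 ± 55.6 and 362 ± 12.9 CPM) and Csf1r (307 ± 45.8 and 353 ± 10.7) had higher means in NOD.Idd2, and Ly6c2, Chil3 and Fcgr1, each under 6 CPM, had lower ones. The sum of the 5 plasma cell markers did not overlap either, at 312 to 344 CPM in NOD and at 346 to 428 in NOD.Idd2, with log2 differences above 0 in 5 of 5 and 0 passing. Irf4 (154 ± 10.6 and 158 ± 8.93 CPM) and Xbp1 (126 ± 13.2 and 136 ± 3.53) made up most of it. Irf4, Xbp1 and Jchain each overlapped between the strains, Jchain at 21.6 to 51.2 CPM in NOD and at 32.1 to 108 in NOD.Idd2. The part of both marker sums in the receptor values was not tested. The conventional dendritic cell and macrophage marker sums overlapped, at 3780 to 4119 and 3751 to 4093 CPM and at 564 to 677 and 563 to 621 CPM.

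**Figure D4:**
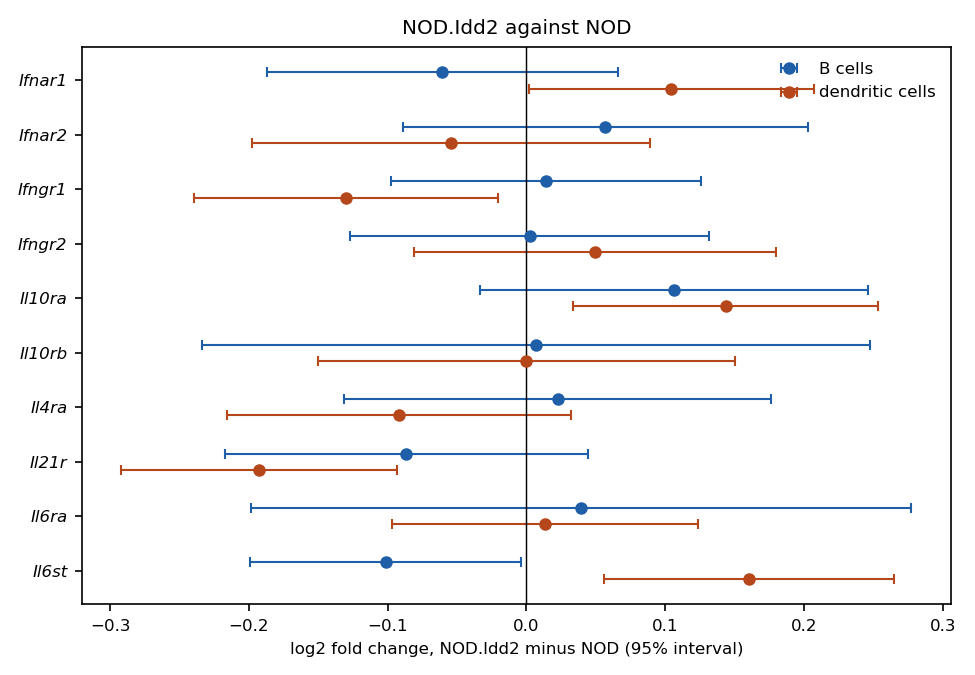
Difference of each receptor gene between NOD.Idd2 and NOD, as log2 fold change with its 95% interval (horizontal axis, NOD.Idd2 minus NOD), in B cells (blue) and dendritic cells (red). All values lie between -0.19 and 0.16, no gene passed after adjustment, and Il6st lies at -0.10 in B cells and at 0.16 in dendritic cells.

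The test of whether the strain difference itself differed between the cell types gave 0 of 10 receptor genes, with 18 of 16588 genes past the threshold (0.109%), and 3 of 10 at an unadjusted p under 0.05 against 8.22% of all genes. Il6st had the largest value, lower in NOD.Idd2 in B cells and higher in dendritic cells, a difference of 0.24 on the log2 scale (SE 0.06, 95% interval 0.11 to 0.37, adjusted p = 0.240 by edgeR). DESeq2 called Il6st, with an adjusted p of 0.00670, whereas the other 18 of 19 alternatives did not, with adjusted p up to 0.489. Ifngr1 (log2 -0.16) and Ifnar1 (log2 0.15) had adjusted p of 0.562 and 0.606 by edgeR. For Il10ra the strain differences in the cell types were 0.02 apart on the log2 scale, with a 95% interval of -0.15 to 0.18.

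Il10ra is the member on the chromosome of the B10 locus, and the genes around it were examined for strain differences in the same fits. Of 91 other genes of the table within 1 Mb of it, 55 were tested in each cell type. In B cells 1 of the 55 passed (1.82%, beside 0.160% of all genes): Tmprss13, a membrane serine protease at 45319100 to 45347581, rose from 0.140 ± 0.00597 CPM in NOD to 1.78 ± 0.226 in NOD.Idd2 (log2 3.65, SE 0.22, adjusted p = 0.00163 by edgeR). In dendritic cells 2 of the 55 passed (3.64%, beside 1.29%), both lower in NOD.Idd2. Scn2b, a sodium channel beta subunit at 45117782 to 45130070, fell from 123 ± 17.7 to 82.8 ± 6.32 CPM (log2 -0.56, SE 0.09, adjusted p = 0.00713 by edgeR), and Jaml, an adhesion molecule of leukocytes at 45079183 to 45108534, from 240.0 ± 30.1 to 186 ± 11.8 CPM (log2 -0.36, SE 0.07, adjusted p = 0.0410). The Jaml call was lost with limma-voom (adjusted p = 0.0564), in a fit of all 12 libraries (0.117), and without NOD replicate 2 (0.141) or 3 (0.0597) or any NOD.Idd2 replicate (0.153 to 0.208). The Scn2b call was lost in the fit of all 12 libraries (0.0519) and without NOD.Idd2 replicate 2 (0.0596) or 3 (0.0746). The medians over the 55 genes, -0.01 in B cells and -0.06 in dendritic cells, were near 0, and Il10ra itself passed in neither.

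**Figure D5:**
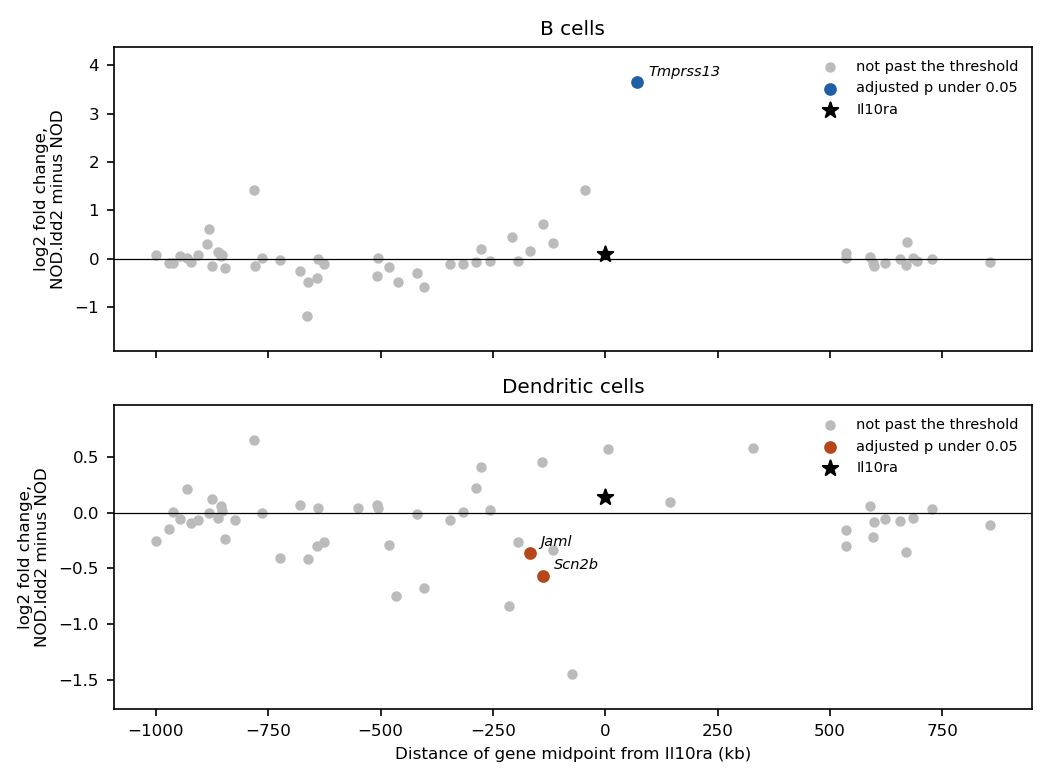
Strain difference (log2 fold change, NOD.Idd2 minus NOD, vertical axes differing between panels) of the tested genes within 1 Mb of Il10ra, by the distance of the gene's midpoint from that of Il10ra in kilobases, in B cells (top) and dendritic cells (bottom). Coloured points passed the test, the star is Il10ra, at 0.11 (top) and 0.14 (bottom), and the genes past the test are Tmprss13 in B cells and Jaml and Scn2b in dendritic cells.

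Among 17 tested other receptor chains, 7 were higher and 7 lower in dendritic cells in NOD by edgeR. These counts and those of the lists that follow stand beside 76.4% of all genes tested that passed in NOD (37.7% higher and 38.7% lower), and the count of receptor chains is near that background. Il13ra1, which pairs with the product of Il4ra in the type II interleukin 4 receptor, was at 0.844 ± 0.168 CPM in NOD B cells and 75.8 ± 6.84 in NOD dendritic cells (log2 6.49, SE 0.11, adjusted p = 4.37e-14). Il12rb2, of the interleukin 12 receptor, was at 1.34 ± 0.121 and 92.9 ± 5.60 CPM (log2 6.12, adjusted p = 2.85e-14), and Il5ra, of the interleukin 5 receptor, at 57.2 ± 3.39 and 0.220 ± 0.210 (log2 -7.97, adjusted p = 6.75e-12).

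Of 12 JAK kinases, STATs and Irf9, 7 were higher and 2 lower in NOD dendritic cells, a total near the 76.4% of all genes. In NOD.Idd2, 5 were higher and 3 lower, where 75.7% of all genes passed. Jak2, which serves the interferon gamma receptor, was at 194 ± 4.55 CPM in NOD B cells and 1077 ± 43.2 in NOD dendritic cells (log2 2.48, SE 0.04, adjusted p = 5.74e-14 by edgeR). Jak1, which serves all the receptors described here, was lower there, at 918 ± 27.0 and 393 ± 13.7 CPM (log2 -1.21, SE 0.04, adjusted p = 4.13e-11). Stat3, downstream of interleukins 6, 10 and 21, was at 209 ± 8.24 and 389.7 ± 10.4 CPM (log2 0.91, adjusted p = 1.41e-09), and Stat6, downstream of interleukin 4, at 302 ± 25.2 and 293 ± 20.9 (log2 -0.03, adjusted p = 0.692). Of 17 inhibitors, 4 were higher and 9 lower in NOD dendritic cells, again a total near that of all genes. Socs2, a feedback inhibitor of cytokine signalling, was at 0.458 ± 0.0171 and 35.6 ± 6.37 CPM (log2 6.28, adjusted p = 9.08e-12), and Usp18, which acts on the type I receptor through IFNAR2, at 3.22 ± 0.658 and 58.0 ± 4.87 (log2 4.18, adjusted p = 6.68e-12). The target lists were higher in NOD dendritic cells in 11 of 12 type I interferon, 10 of 12 interferon gamma and 8 of 11 STAT6 and STAT3 genes, with 0, 0 and 2 lower. In NOD.Idd2 the same lists had 10, 9 and 8 genes higher, with 1, 1 and 1 lower. Fcer2a, the low-affinity receptor for IgE and a gene induced by interleukin 4 in B cells, was the most different of the last list, at 1106 ± 60.5 CPM in NOD B cells and 5.53 ± 2.78 in NOD dendritic cells (log2 -7.63, adjusted p = 1.73e-11).

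Few transcripts of the ligands were present. Of 13 ligand genes, 6 were tested between the cell types, 4 of them higher and 2 lower in NOD dendritic cells by edgeR. Il6 was at 0.0389 ± 0.0137 CPM in NOD B cells, 1 to 2 counts a library, and 1.17 ± 0.233 in NOD dendritic cells, 24 to 37 counts (log2 4.80, SE 0.37, adjusted p = 1.01e-07). Ebi3, the shared subunit of interleukins 27 and 35, was at 9.38 ± 0.586 and 29.6 ± 4.32 CPM (log2 1.67, adjusted p = 1.36e-08), and Osm, an interleukin 6 family cytokine, at 10.2 ± 0.357 and 4.18 ± 0.562 (log2 -1.28, adjusted p = 6.25e-07).

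Between the strains, 0 genes of these 7 lists passed in B cells by edgeR, although all 11 tested type I interferon targets had a log2 difference above 0, with a median of 0.25 beside 0.01 over all genes. Over all genes tested, 0.160% passed in B cells and 1.29% in dendritic cells. The lists were chosen with earlier results of these data known, so their counts are descriptions. In dendritic cells the receptor chain Il13ra1 rose from 75.8 ± 6.84 CPM in NOD to 109 ± 3.12 in NOD.Idd2 (log2 0.53, SE 0.07, adjusted p = 0.00206 by edgeR), the sole call among 15 other receptor chains tested. Its libraries were at 78.5, 68.0 and 80.9 CPM in NOD and at 109.7, 112 and 106 in NOD.Idd2, far from overlapping, while Il4ra, whose product it pairs with, did not pass. Of 12 type I interferon targets tested, 4 fell and 8 did not pass, with a median of -0.27 beside 0.00 over all genes: Oas2 (66.3 ± 1.31 to 42.4 ± 8.82 CPM, log2 -0.62, adjusted p = 0.00813) and Oas1a (21.2 ± 0.731 to 14.9 ± 1.44, log2 -0.49, adjusted p = 0.0105), both sensors of double-stranded RNA, Oasl2 of the same family (42.1 ± 8.54 to 26.4 ± 3.49, log2 -0.65, adjusted p = 0.0363) and Zbp1, a sensor of Z-form nucleic acids (31.2 ± 4.15 to 21.8 ± 1.56, log2 -0.51, adjusted p = 0.0198). Of 12 interferon gamma targets 1 fell, Nlrc5, the transactivator of MHC class I genes (229 ± 11.9 to 186 ± 7.59 CPM, log2 -0.29, adjusted p = 0.0166). None of 17 inhibitors, 4 ligands and 11 STAT6 and STAT3 targets passed.

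Several of these calls were lost when 1 library was left out. The fit of all 12 libraries ended the calls of Oas2 (adjusted p = 0.138), Oas1a (0.209), Oasl2 (0.0540) and Nlrc5 (0.249). Leaving out NOD replicate 2 ended those of Zbp1, Oasl2 and Nlrc5 (0.0592 to 0.113), and leaving out any NOD.Idd2 replicate ended those of Zbp1, Oasl2 and Nlrc5 (0.0549 to 0.194). That of Oas1a also ended without NOD.Idd2 replicate 1 (0.0800) or 3 (0.0609), and that of Oasl2 with limma-voom (0.0747), whereas Il13ra1 passed under every alternative run. The difference between the cell types' strain differences did not pass for any gene of the 7 lists by edgeR.

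Across the 12 libraries, the gene whose log2 CPM followed each receptor most closely was Golgb1 for Ifnar1 (Pearson r = 0.956), Wdfy4 for Ifnar2 (0.999), Elf4 for Ifngr2 (0.989), Lyz1 for Il10ra (0.998), Snrpa1 for Il10rb (0.938), Ripor2 for Il4ra (0.999) and Bicral for Il21r (0.993). For Ifngr1, Il6ra and Il6st it was Gpr82, Dennd5a and Anxa2, each with r above 0.999. These values are descriptions: the 12 points share 2 cell types, so any gene with a wide gap between them follows closely, and 1661 of 16578 genes had r above 0.99 with Ifngr1 and 0 with Ifnar1, Ifngr2 or Il10rb.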

How the data were processed

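Trizol extraction, poly(A) selection and a KAPA kit are named in the labels' protocols. STAR (version written 0.12.2) and the build GRCm38 come from the submitters' processing notes. Which tool counted the reads, on which annotation and strand and with which filters, was not given in the sources used here. Raw counts per gene symbol were deposited by the authors, in 12 columns matched to samples by title and description. They also deposited a normalized signal per gene, equal to the counts divided by 1 size factor a library within each cell type, which served only as an alternative. Groups and replicate numbers came from sample titles.

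CPM used TMM scaling over the 12 libraries. edgeR 4.0.16 (R 4.3.3) filtered genes through filterByExpr (minimum count 10, total 15). Its quasi-likelihood test, with Benjamini-Hochberg adjusted p-values over all genes tested and a threshold of 0.05, was fitted to the 6 libraries of a cell type for the strains. For the cell types and for the difference of strain differences it was fitted to all 12 libraries in 4 groups. Standard errors are the log2 difference over the root of the F statistic, and intervals are at 95%. The fits were tested on simulated counts. Exon lengths and positions came from GENCODE M21, which matched 27693 of 28188 symbols once.

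The members, the gene lists and the rules were chosen with earlier results of these data known. Named were all members, per list up to 4 genes past the test with the smallest p between strains and up to 3 between cell types, genes past the test within 1 Mb of Il10ra, genes overlapping neighbouring members, and the gene most like each member. Cell type examples are from NOD. A gene that the rule names between strains is not reported here. Il2rg and Stat6 were named for their role after their values were seen.

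Replicate numbers 1 to 3 recur in all groups. As a check of pairing, the deviation of each library from its group mean was correlated with that of the library of the same number in the other strain, giving 0.519, 0.326 and 0.753 in B cells and 0.0120, 0.0166 and 0.0628 in dendritic cells. The labels state no pairing, and B cell libraries of unlike number also correlated. NOD replicate 1 with NOD.Idd2 replicate 2 gave 0.355, and NOD replicate 2 with NOD.Idd2 replicate 1 gave 0.394. Replicate 3 stood apart in both B cell groups, so replicates 1 and 2 deviate alike whatever the pairing. The check therefore cannot show that the numbers pair the B cell libraries. In dendritic cells the same-number values were small. Alternatives were DESeq2 1.42.0, limma-voom (limma 3.58.1), RLE size factors, library totals, no filter on low counts, 1 CPM in 3 libraries as the filter, 1 fit over the 12 libraries, the deposited normalized values, the replicate block, both B cell replicate 3 libraries left out, and each library left out. The chain ratios and a term for B cell replicate 3 were added after seeing the data.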

Additional observations from a re-analysis of the deposited data

How the results depend on the processing

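Between the strains, DESeq2 called 122 genes in B cells, 296 in dendritic cells and 115 for the difference between them, in place of 24, 186 and 18. With no filter on low counts the last 2 became 700 and 33, and a fit of all 12 libraries gave 42 in B cells and 94 in dendritic cells. The replicate block, which pairs libraries by number, gave 156 in B cells and 56 for the difference between cell types, and changed no call of a receptor gene other than that of Il10rb between cell types in NOD. Without both replicate 3 B cell libraries 46 genes passed in B cells, and 74 with a term for replicate 3. Leaving out each library in turn gave 13 to 18 genes in B cells, 63 to 332 in dendritic cells and 7 to 19 for the difference. In dendritic cells the counts were 71, 63 and 77 without NOD.Idd2 replicate 1, 2 and 3, the last being the shallowest library, and 118 and 332 without NOD replicate 2 and 3. Among the receptor genes, 1 passed in dendritic cells under DESeq2 and 1 with no filter, Il21r in both, and 1 for the difference under DESeq2, Il6st. The cause was not tested.

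Signs turned only for strain differences, or their difference between cell types, that lay near 0 in the main fit, and none of these passed. The turned values went as far as -0.121, for Il10rb in B cells. In B cells Ifngr2 turned to -0.00142 under DESeq2, -0.00138 with RLE size factors and -0.00155 with no filter. Il10rb turned to -0.00116 with limma-voom, -0.00528 on the deposited normalized values, -0.000689 with the replicate block, -0.0825 without both replicate 3 libraries and -0.000911 with a term for them, and Ifngr1 to -0.0154 without both. In dendritic cells Il10rb turned to 0.0102 with limma-voom, 0.0109 with library totals and 0.00368 with no filter, and Il6ra to -0.00355 in the fit of all 12 libraries. For the difference between cell types Il10rb turned to 0.000193 with library totals. With each library left out in turn, the log2 difference in B cells ran from -0.00296 to 0.101 for Ifnar2, -0.0127 to 0.0461 for Ifngr1, -0.0475 to 0.0431 for Ifngr2, -0.121 to 0.0758 for Il10rb, -0.0361 to 0.0666 for Il4ra and -0.0440 to 0.126 for Il6ra. In dendritic cells it ran from -0.130 to 0.000534 for Ifnar2, -0.0570 to 0.0665 for Il10rb and -0.0141 to 0.0551 for Il6ra. For the difference between cell types it ran from -0.0180 to 0.113 for Ifngr2, -0.0197 to 0.0726 for Il10ra, -0.0912 to 0.105 for Il10rb and -0.131 to 0.0349 for Il6ra.

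The lowest count of a receptor gene in any library was 606, and the effect of depth was not tested. Some strain intervals of the receptor genes excluded 0, but none of those genes passed after adjustment over all genes by edgeR.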
